A study of Mus musculus with 2 samples.

Results

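Mitochondrial ribosomal protein genes carried EP300 at their transcription start sites more often than protein-coding genes at large in the hearts of newborn mice. The genes were taken by symbol from the GENCODE annotation of mm10: every protein-coding gene named Mrpl or Mrps with a number and, for some, a letter. This gave 78 of 21853 protein-coding genes, spread over 17 chromosomes, with 11 of them on chromosome 11. A peak was given to 1 of these genes when its summit lay within 100 kb of a protein-coding transcription start site (TSS) and the nearest such TSS belonged to that gene (distance alone was used, and no contact between site and gene was measured). By this rule 75 of the 17372 peaks of the authors' optimal list belonged to the 78 genes. EP300 (p300), a histone acetyltransferase and transcriptional coactivator, was mapped by ChIP-seq (sequencing of immunoprecipitated chromatin) in heart tissue of mice of strain B6NCrl at postnatal day 0, with no genotype change and no treatment named in the labels. Both libraries, replicates 1 and 2, form the only group, so the members are set against all protein-coding genes of the same libraries and not against another condition. The labels give both libraries the same biosample and donor identifier, so the spread between them may be technical, and no test between conditions can be made.

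Mitochondria keep a small genome of their own and translate its messages, all of which in mammals code for subunits of the respiratory chain and ATP synthase, on a ribosome whose proteins are all encoded in the nucleus, made in the cytosol and imported. The large subunit joins amino acids and passes the nascent chain through an exit tunnel to the inner membrane, and the small subunit binds the mRNA and decodes it. Many of these proteins have kin in bacterial ribosomes and the others were added in mitochondria. Heart muscle depends on oxidative phosphorylation, and human mutations in several of these genes, MRPL3 and MRPL44 among them, cause cardiomyopathy.

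The libraries fitted their tissue label: the heart muscle markers Myh6, Tnnt2, Nppa, Ryr2 and Actc1 held 68 optimal peaks and all 5 had at least 1. The endothelial markers Kdr, Pecam1 and Tek held 18 peaks. The neuronal markers Rbfox3, Syt1 and Snap25 held 2, and the liver markers Alb, Ttr and Apoa1 held 1. The peak lists carry no read counts, so the sequencing depth is unknown. The signal value printed with each peak is the authors' own, and how it was computed is not stated. Its scale can differ between lists, so replicates are set beside each other with their ranks or as each list's own value.

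Of the 78 genes, 39 had at least 1 optimal peak, or 50.0%, against 31.9% of all protein-coding genes. The difference lay at the promoters. A peak with its summit within 1 kb of the TSS, called a promoter peak here, was assigned to 36 of the 78 genes, or 46.2%, against 19.0% of all protein-coding genes. When any optimal summit within 1 kb of a TSS was counted, also one that went to a neighbour with a closer start, 45 of the 78 genes had one, or 57.7%, against 21.3% of all protein-coding genes. Distal peaks, those beyond 1 kb, were less frequent among the mitochondrial ribosomal protein genes: 9 of 78 had one, or 11.5%, against 19.3% of all protein-coding genes. The stretch of DNA nearest to each TSS, in which a distal peak could fall, was shorter too, with a median of 24629 bp for members and 46412 bp for all genes. Accordingly 49 of the 75 member peaks, or 65.3%, were promoter peaks, against 37.3% of the 15570 assigned peaks of all genes. Over peaks of both kinds the median signal was 30.6 for the members' 75 peaks and 30.6 for all assigned peaks. Over promoter peaks alone it was 33.5 for members and 30.6 for all genes, and over distal peaks 29.3 for members and 30.6 for all genes. In a whole organ, EP300 bound in fewer cells and less EP300 bound per cell cannot be told apart in such a height.

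**Figure D1:**
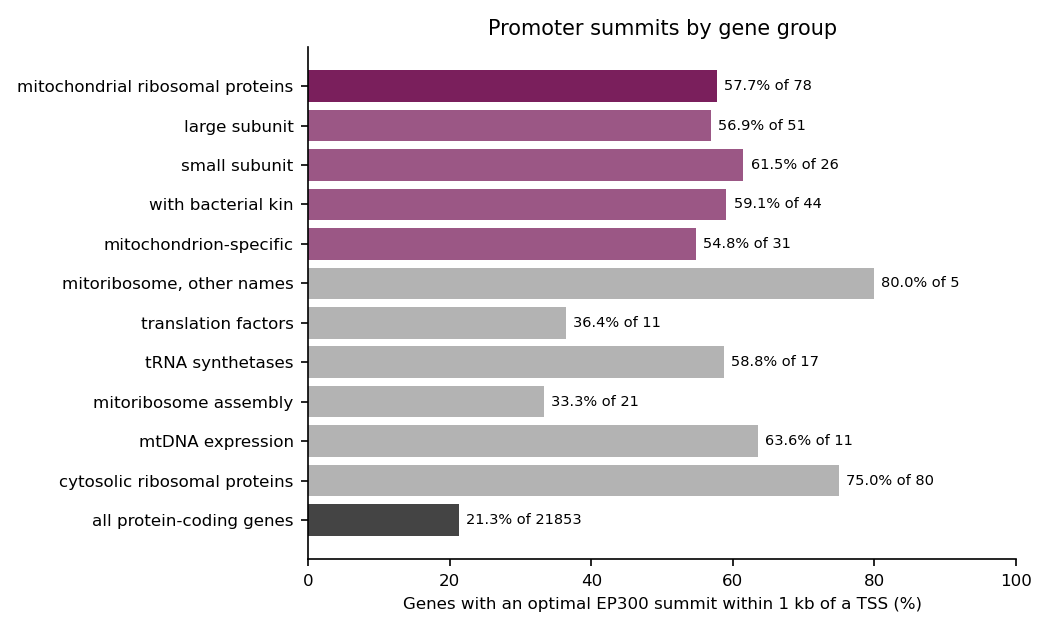
Percentage of the genes of each group (horizontal axis) with an optimal EP300 summit within 1 kb of a TSS, for the 78 mitochondrial ribosomal protein genes and their classes, 6 other gene lists and all protein-coding genes. The bar of the 78 genes ends at 57.7% and that of all protein-coding genes at 21.3%.

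The same was seen in each library on its own. In the replicate 1 list, 71 of the 78 genes had a call within 1 kb of a TSS, or 91.0%, against 57.0% of all protein-coding genes, and the strongest such call had a median signal of 16.7 for the members and 11.7 for all genes with a call. In the replicate 2 list 67 of the 78 genes had one, or 85.9%, against 51.0% of all genes, with medians of 12.7 for the members and 8.76 for all genes. Each of these lists holds 300000 calls, most of them weak, so a call there is a lower bar than an optimal peak. With only as many leading calls of each replicate as the optimal list holds, 32 of the 78 genes, or 41.0%, had a promoter call in both replicates, against 15.4% of all genes. Another 13 members had one in replicate 1 only, 6 in replicate 2 only and 27 in neither. Over the 63 members with a call in both full lists, the strongest promoter calls of replicates 1 and 2 correlated at Spearman's rho 0.50 and Pearson's r 0.66, and over the 9223 genes with a call in both the values were 0.61 and 0.76. These correlations run across genes of the same 2 libraries, and genes are not independent replicates.

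**Figure D2:**
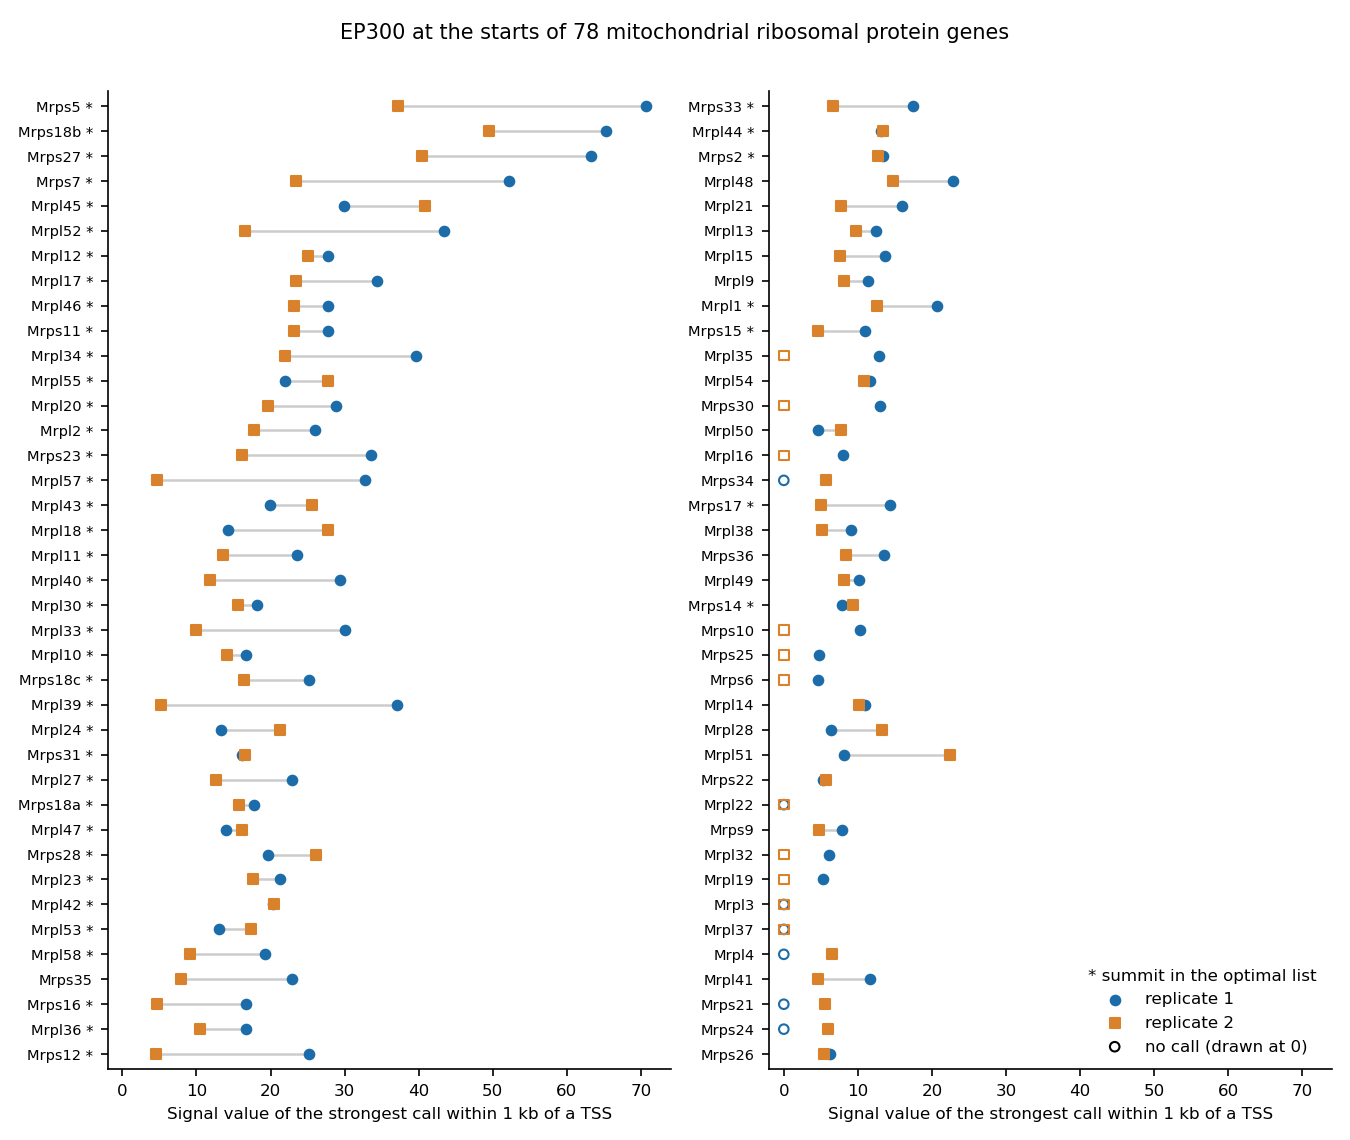
Signal value (horizontal axis) of the strongest call within 1 kb of a TSS of each of the 78 genes in replicate 1 (circles) and replicate 2 (squares), ordered by the strongest call in the pooled list, with open symbols at 0 where a list held no call and an asterisk where the optimal list held a summit. Mrps18b leads in replicate 2 with 49.5 and Mrps5 in replicate 1 with 70.7, and the circles of Mrpl57 and Mrpl39 stand far to the right of their squares.

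The strongest peak of the family lay at Mrps5, which encodes a small-subunit protein at the entry of the mRNA channel. It had a signal of 108.1 and rank 290 in the optimal list (chr2:127587049-127587544), with the summit 75 bp downstream of the TSS in an untranslated exon. Its signal was 70.7 in replicate 1, at rank 181 of that list, and 37.2 in replicate 2, at rank 754. Mrpl45, whose product sits at the exit of the tunnel and ties the ribosome to the inner membrane, had a promoter peak of 65.5 (chr11:97315524-97316019), 56 bp downstream of the TSS. Its rank was higher in replicate 2 (signal 40.9, rank 557) than in replicate 1 (signal 29.9, rank 3133). The promoter peaks of Mrpl52, a mitochondrion-specific protein of the large subunit, and of Mrpl12, the stalk protein that calls translation factors to the ribosome, were alike in height. Mrpl52 had 58.5 at 31 bp upstream of the TSS (43.4 in replicate 1 and 16.6 in replicate 2), and Mrpl12 had 58.4 at 27 bp upstream (27.8 in replicate 1 and 25.0 in replicate 2). Mrpl17, at the rim of the exit tunnel, had 56.5 at 138 bp upstream (34.4 in replicate 1 and 23.5 in replicate 2). Mrps11, on the platform of the small subunit, had 55.3 at 78 bp downstream (27.8 in replicate 1 and 23.1 in replicate 2). Mrpl34, a small basic protein of the large subunit with bacterial kin, had 54.2 at 396 bp upstream (39.6 in replicate 1 and 22.0 in replicate 2). Mrpl55, of the large subunit, had 52.5 at 215 bp upstream (22.0 in replicate 1 and 27.7 in replicate 2). All 8 of these promoter peaks stood in both replicate lists within 248 bp of the summit and in the conservative list.

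The promoter sequences under the 6 strongest of these peaks are shown because they carry the main result and differ in the motifs they hold. Each runs 5′ to 3′ on the strand of the gene, from 250 bases before to 50 bases after the RefSeq start, on GRCm38.p6. Matches to the motifs listed further on stand in capitals, except those to GATA and TEAD, which were left in small letters. They are Mrps5 on chr2:127587176-127587475 (plus strand), Mrpl45 on chr11:97315466-97315765 (plus), Mrpl52 on chr14:54426659-54426958 (plus), Mrpl12 on chr11:120484387-120484686 (plus), Mrpl17 on chr7:105811038-105811337 (minus) and Mrps11 on chr7:78782881-78783180 (plus).
Mrps5: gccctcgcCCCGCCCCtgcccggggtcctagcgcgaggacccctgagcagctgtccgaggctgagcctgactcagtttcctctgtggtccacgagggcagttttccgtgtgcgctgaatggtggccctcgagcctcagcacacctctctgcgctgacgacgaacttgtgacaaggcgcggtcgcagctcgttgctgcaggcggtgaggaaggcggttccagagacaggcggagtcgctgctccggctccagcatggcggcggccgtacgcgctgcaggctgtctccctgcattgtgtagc
Mrpl45: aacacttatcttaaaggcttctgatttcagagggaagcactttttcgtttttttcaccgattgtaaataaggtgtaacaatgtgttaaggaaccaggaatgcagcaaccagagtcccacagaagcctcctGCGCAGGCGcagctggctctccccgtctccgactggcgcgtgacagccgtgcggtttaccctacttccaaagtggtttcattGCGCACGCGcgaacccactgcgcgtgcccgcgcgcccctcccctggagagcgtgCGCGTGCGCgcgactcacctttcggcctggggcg
Mrpl52: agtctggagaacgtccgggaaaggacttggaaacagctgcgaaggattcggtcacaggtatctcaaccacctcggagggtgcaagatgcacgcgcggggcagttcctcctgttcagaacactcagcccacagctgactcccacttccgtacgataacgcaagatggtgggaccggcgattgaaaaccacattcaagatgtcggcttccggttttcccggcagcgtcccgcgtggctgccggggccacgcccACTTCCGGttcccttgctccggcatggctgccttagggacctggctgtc
Mrpl12: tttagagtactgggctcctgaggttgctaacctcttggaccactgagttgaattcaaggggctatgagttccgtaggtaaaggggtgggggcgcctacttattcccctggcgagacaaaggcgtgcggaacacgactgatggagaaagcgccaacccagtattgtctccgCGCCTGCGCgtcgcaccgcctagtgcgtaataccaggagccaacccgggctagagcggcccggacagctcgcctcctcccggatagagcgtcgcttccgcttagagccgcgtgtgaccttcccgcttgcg
Mrpl17: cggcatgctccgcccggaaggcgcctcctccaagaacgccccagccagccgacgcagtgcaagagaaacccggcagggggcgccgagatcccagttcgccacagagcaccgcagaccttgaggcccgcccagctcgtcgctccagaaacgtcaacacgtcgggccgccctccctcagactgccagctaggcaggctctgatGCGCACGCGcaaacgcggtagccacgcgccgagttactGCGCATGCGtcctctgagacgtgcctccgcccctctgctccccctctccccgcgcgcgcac
Mrps11: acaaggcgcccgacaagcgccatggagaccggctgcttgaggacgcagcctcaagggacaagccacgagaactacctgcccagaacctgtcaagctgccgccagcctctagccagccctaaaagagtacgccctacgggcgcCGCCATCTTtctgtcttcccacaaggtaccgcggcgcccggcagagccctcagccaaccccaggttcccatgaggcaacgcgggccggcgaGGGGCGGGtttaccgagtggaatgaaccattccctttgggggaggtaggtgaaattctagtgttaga
Counting from the first base printed, the summit fell on base 122 for Mrps5, 220 for Mrpl52, 200 for Mrpl12 and 101 for Mrpl17. Those of Mrpl45 and Mrps11 fell just past the end of the window, at bases 307 and 317. RefSeq starts can differ from the GENCODE TSS used for distances: for Mrps5 the summit was downstream of the nearest GENCODE TSS but upstream of the RefSeq start, which follows the first 250 bases of each window. In Mrpl45 the capitals mark 3 matches to the NRF1 motif, starting at bases 131, 213 and 267. Mrpl17 held 2 NRF1 matches, at bases 202 and 240, and Mrpl12 held 1 at base 171. Mrpl52 held an ETS match at base 252. In Mrps11 the capitals mark a YY1 match at base 143 and a KLF and SP match at base 234, and in Mrps5 a KLF and SP match at base 9. Mrpl45 also held a GATA match and Mrps11 a TEAD match, both unmarked.

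Many of these genes share a start with a neighbour read in the other direction. A protein-coding gene on the opposite strand began within 1 kb of 33 of the 78 genes, or 42.3%, against 11.4% of all protein-coding genes. The starts of these pairs lay a median of 83.0 bp apart, and 28 of the 33 lay within 250 bp. A summit in such a stretch goes to whichever start is closer, so 9 genes had no promoter peak of their own although an optimal summit lay within 1 kb. Among them were some of the strongest sites of the family. Mrps18b, a small-subunit protein named for its likeness to bacterial S18 but counted as mitochondrion-specific, had a summit of 106.1 (65.3 in replicate 1 and 49.5 in replicate 2) that was assigned to Ppp1r10, a regulatory subunit of protein phosphatase 1 whose start lies 177 bp away. Mrps27, a pentatricopeptide-repeat protein of the small subunit, had one of 103.3 (63.2 in replicate 1 and 40.5 in replicate 2), assigned to Ptcd2, a mitochondrial RNA-processing protein, 81 bp away. Mrps7, in the head of the small subunit, had one of 84.6 (52.2 in replicate 1 and 23.4 in replicate 2), assigned to Gga3, a clathrin adaptor, 32 bp away. Mrpl46 and Mrps11 are themselves such a pair, with starts 30 bp apart, and the peak of 55.3, whose summit lay 78 bp inside Mrps11 and 108 bp from the Mrpl46 start, was counted for Mrps11. The other 5 were Mrpl30 (40.5, assigned to Mitd1), Mrpl27 (35.7, assigned to Eme1), Mrpl47 (34.7, assigned to the complex I gene Ndufb5), Mrpl36 (26.4, assigned to the complex I gene Ndufs6) and Mrps12 (26.3, assigned to Sars2, the mitochondrial seryl-tRNA synthetase). Counted by any summit within 1 kb, genes with and without a shared start were alike among the members: 19 of 33 with one and 26 of 45 without had a summit, or 57.6% and 57.8%. Among all protein-coding genes the shares were 46.9% with a shared start and 18.0% without.

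The member summits lay close to the TSS. The 49 promoter peaks had a median position 10 bp downstream of the TSS, with quartiles at 70 bp upstream and 88 bp downstream. Their median distance in either direction was 85.0 bp, against 128 bp for the 5810 promoter peaks of all genes. Within 100 bp of the TSS stood 59.2% of the member promoter peaks, against 42.4% of all promoter peaks, and within 250 bp 89.8% of the member peaks, against 71.5% of all. Upstream of the TSS were 23 member summits and downstream 25, against 3416 upstream and 2374 downstream over all genes. The 1 kb limit between promoter and distal peaks fell in a gap for these genes, since the farthest promoter summit, at Mrpl39, lay 448 bp from its TSS and the nearest distal one, at Mrps23, lay 2789 bp away. The 100 kb limit left out no peak of the family: the farthest summit, at Mrps10, lay 73324 bp from its TSS and the next, at Mrps23, 45398 bp.

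**Figure D3:**
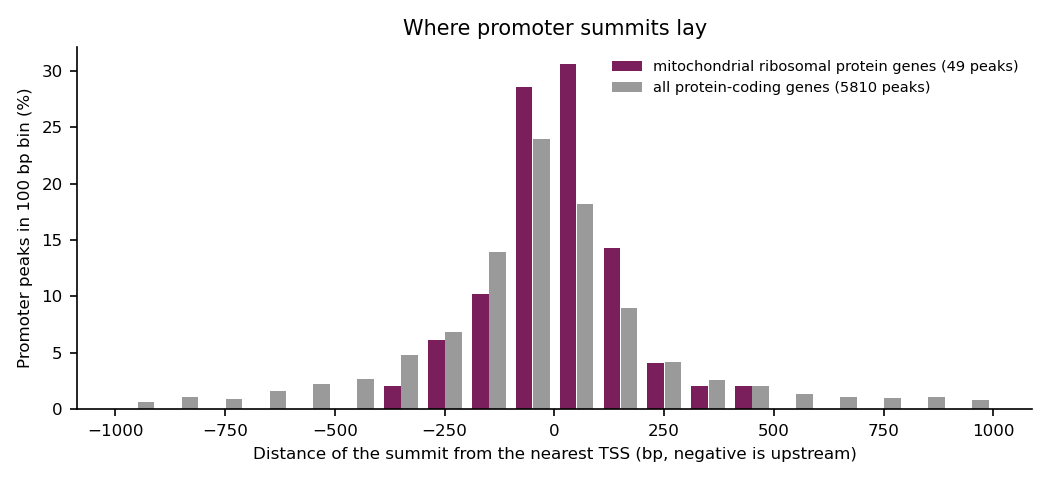
Percentage of promoter peaks (vertical axis) by distance of the summit from the nearest TSS in bins of 100 bp (horizontal axis, negative is upstream), for the 49 peaks of the mitochondrial ribosomal protein genes and for the 5810 promoter peaks of all protein-coding genes. No member summit lies beyond 448 bp, where the peaks of all genes continue to 998 bp.

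By subunit, 25 of the 51 large-subunit genes had a peak, or 49.0%, and 14 of the 26 small-subunit genes, or 53.8%, against 31.9% of all protein-coding genes. Mrps18a and Mrps30 were counted with the large subunit, where their products sit in spite of their names, and Mrps36 with neither. By descent, 22 of the 44 genes with bacterial kin had a peak and 15 of the 31 mitochondrion-specific ones, or 50.0% and 48.4%, against the same 31.9%. The sites of the ribosome were grouped after the values had been seen, and their counts are small. Over all protein-coding genes 19.0% had a promoter peak and 21.3% a summit within 1 kb, shared ones included. All 3 genes of the stalk, where translation factors bind, had a promoter peak: Mrpl12 with 58.4, Mrpl11 with 44.2 and Mrpl10, which anchors Mrpl12, with 39.9. Of 4 genes at the peptidyl transferase centre, Mrpl2 had a peak (49.5), Mrpl27 the shared summit of 35.7, and Mrpl3 and Mrpl16 neither. Around the exit tunnel, Mrpl45 (65.5), Mrpl17 (56.5), Mrpl24 (36.1) and Mrpl23 (33.5) had promoter peaks, Mrpl47 a shared summit, and Mrpl4, Mrpl22 and Mrpl32 none. In the central protuberance, which faces the small subunit, Mrpl18 had a peak of 44.8, at the start it shares with the chaperonin gene Tcp1, and Mrpl40 had one of 43.9. Mrpl46 had the shared summit there, and Mrpl38 and Mrpl48 had none. In the small subunit, the decoding side held Mrps5 (108.1), Mrps12 with its shared summit, and Mrps24 with none. In the head, Mrps14 had a promoter peak of 12.7, Mrps7 the shared summit of 84.6, Mrps10 only a distal peak and Mrps9 no peak. On the platform, Mrps11 (55.3) and Mrps18c (39.3) had peaks and Mrps6 and Mrps21 had none.

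The remaining genes with a single promoter peak were Mrpl20 (50.9), Mrpl57 (46.3), Mrpl43 (46.0, at the start it shares with Twnk, the mitochondrial DNA helicase), Mrpl42 (32.4), Mrpl53 (32.4), Mrpl58 (30.0, the gene of a peptidyl-tRNA hydrolase that releases stalled chains), Mrpl44 (24.7, the gene of an RNase III-like protein) and Mrps2 (23.7). In all, 23 genes had 1 peak, 11 had 2 and 5 had 3 or more. Most of the pairs were calls closer together than the 496 bp width of a call and may be read as 1 site. Mrps31 had 36.0 and 27.8, Mrps28 had 33.8 and 27.9, Mrps16 had 28.9 and 28.5, Mrps33 had 25.4 and 14.0, and Mrpl1 had 19.0 and 17.5. Beside the strong peaks above, Mrpl52 had a second call of 11.3 and Mrpl12 a second call at rank 16022. Mrps15 had 19.0 and 9.57, Mrps17 had 14.6 and 11.4, and Mrps14 had 12.7 and 10.2, the lowest pairs. Mrps18a had promoter peaks of 35.4 and 10.4, and Mrpl23 had 33.5 and 13.3. After joining summits within 496 bp, 57 of the 75 member peaks were left and 39 genes still had one.

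Several of these peaks rested mainly on replicate 1. The strongest promoter calls of Mrps16, Mrps17 and Mrps15 had 16.7, 14.3 and 10.9 in replicate 1. In replicate 2 they had 4.69, 4.96 and 4.56. Mrpl57, whose strongest promoter call had 32.7 in replicate 1, at rank 2433, reached 4.64 in replicate 2, at rank 208203 of that list. Mrpl39 had 37.1 in replicate 1 and no call in replicate 2 within 248 bp of its summit, and Mrps12 had 25.2 in replicate 1, at rank 4772, and 4.52 in replicate 2, at rank 221582. Mrpl43 had 19.9 in replicate 1, at rank 8061, and 25.6 in replicate 2, at rank 2291, and Mrpl18 had 14.2 at rank 15575 and 27.7 at rank 1842, so both stood higher in replicate 2. Over the 75 member peaks, 63 were matched within 248 bp in each of the full replicate lists, or 84.0%, against 86.3% of all assigned peaks. Another 8 had one in replicate 1 only, 2 in replicate 2 only and 2 in neither. Stricter matching gave fewer: within 100 bp 45 of the 75 were matched in both, or 60.0%, against 66.3% of all assigned peaks. With only the leading calls of each replicate 42 were, or 56.0%, against 53.4%. The conservative list held 54 of the 75 intervals, or 72.0%, against 67.2% of all assigned peaks. The deposited −log10 q reached 2 or more in 45 of the 75, or 60.0%, against 57.5%.

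Mrps23, a mitochondrion-specific protein of the small subunit, held 15 of the 75 peaks and 13 of the 26 distal ones. Only 24 of all protein-coding genes, Mrps23 included, had as many peaks. This counts adjoining calls separately, and after joining summits within 1 call width Mrps23 had 11 peaks. Its promoter had peaks of 47.8 and 29.7, at 278 and 74 bp upstream of the TSS. Of its distal peaks 12 lay upstream, over 42609 bp, and 9 of them in introns of Cuedc1, the neighbouring gene of a ubiquitin-binding CUE-domain protein whose own TSS lies 105242 bp from that of Mrps23. The strongest, of 95.9 and rank 444 (chr11:88181093-88181588), lay 23047 bp upstream and had 71.4 in replicate 1 and 28.4 in replicate 2. Others inside Cuedc1 had 66.7 at 45398 bp (55.0 in replicate 1 and 16.6 in replicate 2), 61.2 at 31298 bp (41.4 and 17.1), 52.1 at 16653 bp (29.9 and 22.7) and 49.2 at 39184 bp (31.8 and 15.8). The weaker intronic ones had 30.6 at 32330 bp, 30.5 at 42468 bp, 19.6 at 31097 bp and 12.8 at 38983 bp, of which the last pair adjoined stronger calls. Between the genes were peaks of 31.5 at 7055 bp, 17.6 at 3044 bp and 16.6 at 2789 bp upstream. A single peak of 7.32, the weakest of the family, lay 29077 bp downstream and had no match in either replicate. The distal signal of Mrps23 summed to 491.6, with adjoining calls counted separately. Cuedc1 itself was assigned 9 further peaks, so which gene these sites serve is not given by their place. Without Mrps23, 60 member peaks remained, 13 of them distal.

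**Figure D4:**
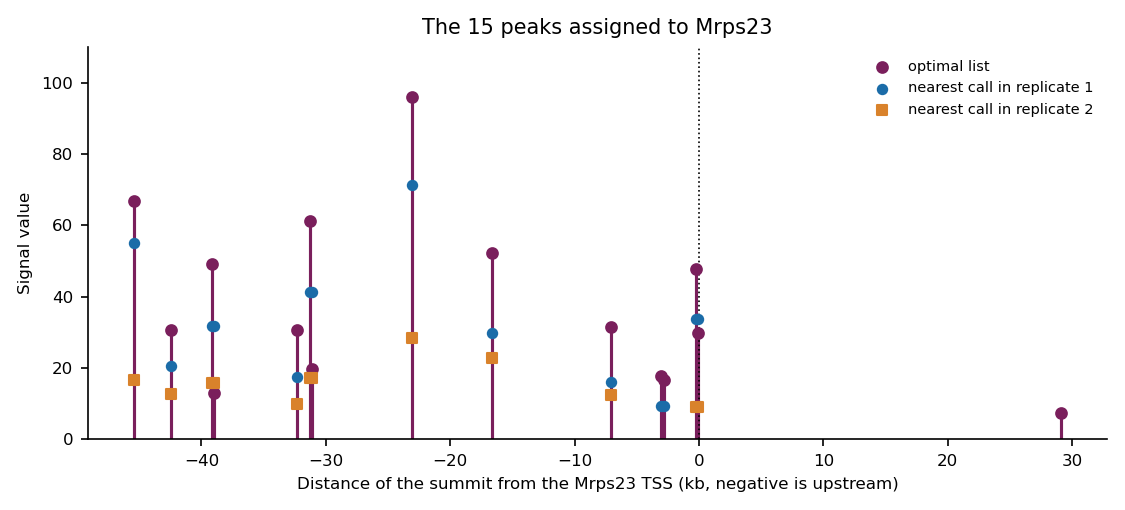
Signal value (vertical axis) of the 15 optimal peaks assigned to Mrps23 by distance of the summit from its TSS in kb (horizontal axis, negative is upstream). The symbols of replicates 1 and 2 give the strongest call within 248 bp, named the nearest call in the key. Adjoining peaks can carry the same replicate call: those of 61.2 and 19.6 both have 41.4 in replicate 1 and 17.1 in replicate 2. The peak of 95.9 stands at 23047 bp upstream, and all but 1 of the distal peaks lie upstream.

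The 201 bases around 1 of these intronic summits, the peak of 61.2, are shown because they hold 2 matches to the TEAD motif, the sequence bound by the TEAD factors of the Hippo pathway, which are active in heart muscle. They lie on chr11:88172990-88173190 and are given on the plus strand, with both matches in capitals.
Mrps23: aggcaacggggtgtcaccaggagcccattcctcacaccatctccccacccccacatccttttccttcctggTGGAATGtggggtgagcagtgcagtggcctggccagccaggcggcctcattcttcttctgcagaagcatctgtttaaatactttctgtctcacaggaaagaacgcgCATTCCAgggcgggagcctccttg
The matches start at bases 72 and 178 from the first base printed. TEAD matches stood in 4 of the 26 distal member windows, or 15.4%, against 6.34% of the 9760 distal windows of all genes. GATA matches stood in 0 of the 26, against 16.7% of all distal windows. The USF E-box stood in 11.5% of the 26, against 5.73%, and MEF2 in 3.85%, against 5.36%. The windows of the stronger Mrps23 peaks of 95.9 and 66.7 held no match to a searched motif. The 4 windows with a TEAD match came from 3 genes, Mrps23 with 2, Mrpl45 and Mrpl33, so the share rests on few loci.

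The other 13 distal peaks belonged to 8 genes. Mrpl33 had 5, at 40.0, 26.7, 23.4, 18.3 and 13.0, from 16994 bp upstream to 31066 bp downstream, besides its promoter peak of 40.2. All lay inside the annotated Mrpl33 gene but outside exons of protein-coding transcripts, and 3 of them also inside Rbks, the ribokinase gene. The peaks of 26.7 and 18.3 had summits at bases 31596945 and 31597150 of chromosome 5. That is just past the 5′ end of the annotated gene, at base 31596935. They counted as distal because distances were taken from starts of protein-coding transcripts only. The strongest of them, 16320 bp downstream, had 22.3 in replicate 1 and 21.7 in replicate 2. Mrpl45 had 2, of 48.3 at 13373 bp and 27.9 at 15584 bp upstream. The first of these ranked higher in replicate 2 (31.9, rank 1244) than in replicate 1 (15.4, rank 13204), and the second higher in replicate 1 (20.4, rank 7685) than in replicate 2 (5.87, rank 101314). Single distal peaks stood at Mrpl23 (33.9, at 7333 bp upstream), Mrpl36 (30.9, at 5900 bp downstream), Mrps18a (30.0, at 26686 bp upstream), Mrps27 (28.6, at 8831 bp downstream in its own intron), Mrps10 (23.2, at 73324 bp upstream) and Mrpl39 (21.7, at 32473 bp downstream). In Mrps10, Mrps27 and Mrpl36 this was the only peak assigned to the gene.

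No optimal summit lay within 1 kb of the other 33 genes, of which Mrps10 had its distal peak and 32 had none at all. In the pooled list of 300000 calls, 91.0% of the 78 members and 55.4% of all protein-coding genes had a call within 1 kb. A call of that list was present at 26 of the 33 genes. The highest were at Mrps35 (29.5, with 22.9 in replicate 1 and 7.91 in replicate 2), Mrpl48 (23.6), Mrpl21 (22.8), Mrpl13 (20.7) and Mrpl15 (20.5). All of these exceeded the strongest optimal promoter peaks of Mrps15 (19.0), Mrps17 (14.6) and Mrps14 (12.7). The conservative list held a summit at Mrpl48, Mrpl13 and Mrpl14. The lowest pooled calls were at Mrpl19 (7.67), Mrpl32 (9.17), Mrps9 (9.73), Mrpl22 (10.3) and Mrps22 (10.5). Between these stood Mrpl9, Mrpl16, Mrpl28, Mrpl35, Mrpl38, Mrpl49, Mrpl50, Mrpl51, Mrpl54, Mrps6, Mrps25, Mrps30, Mrps34, Mrps36 and Mrps10. At 7 genes, Mrpl3, Mrpl4, Mrpl37, Mrpl41, Mrps21, Mrps24 and Mrps26, the pooled list held no call within 1 kb. Mrpl3 and Mrpl37 had none in either replicate list as well. The other 5 had calls in a replicate list: Mrpl41 with 11.7 in replicate 1 and 4.62 in replicate 2, Mrps26 with 6.23 in replicate 1 and 5.43 in replicate 2, and, in replicate 2 only, Mrpl4 with 6.51, Mrps24 with 5.96 and Mrps21 with 5.50.

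The promoters of these genes were mostly CpG-rich. A promoter of 300 bases in the RefSeq table was found for 69 of the 78 genes and 16514 of the 21853 protein-coding genes. Mrpl4, Mrpl13, Mrpl15, Mrpl19, Mrpl38, Mrpl54, Mrps28, Mrps34 and Mrps35 had no entry. A promoter was called CpG-rich at a GC content of at least 50% and a ratio of observed to expected CpG of at least 0.6, a split added after the counts above were known. By this rule 55 of the 69 member promoters were CpG-rich, or 79.7%, against 47.7% of all. The members had a median CpG ratio of 0.82 and all genes one of 0.60, while the median GC content was 58.3% in members and 57.0% in all. The shares with EP300 were therefore also taken within each kind. Among CpG-rich promoters, 36 of 55 members had an optimal summit within 1 kb, or 65.5%, against 36.7% of all. Among CpG-rich promoters with a shared start the shares were closer, at 63.0% of 27 members and 50.9% of all, and among those without they were 67.9% of 28 members and 33.2% of all. Of the 11 member promoters that were neither CpG-rich nor shared, 54.5% had a summit, against 8.45% of all such promoters.

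Motifs of factors known from promoters of nuclear genes for mitochondrial proteins were searched on both strands of the 300 bases. NRF1 is a regulator of respiratory-chain genes, GABPA (NRF2) is an ETS factor with the same kind of targets, and YY1 is a zinc-finger factor that works with the coactivator PGC-1alpha. The NRF1 motif, GCGCANGCG, stood in 16 of the 69 member promoters, or 23.2%, against 9.22% of all promoters and 17.6% of all CpG-rich ones. The ETS motif, CCGGAAGT, stood in 11, or 15.9%, against 5.55% of all and 9.23% of the CpG-rich ones. The YY1 motif, AANATGGCG, also stood in 11, or 15.9%, against 3.46% of all and 5.97% of the CpG-rich ones. At least 1 of the 3 was found in 35 of the 69 member promoters, or 50.7%, against 16.4% of all promoters. Among CpG-rich promoters the shares were 47.3% of members and 29.3% of all. No 2 matches of different motifs overlapped in a member promoter. A match describes letters and is not a bound site.

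**Figure D5:**
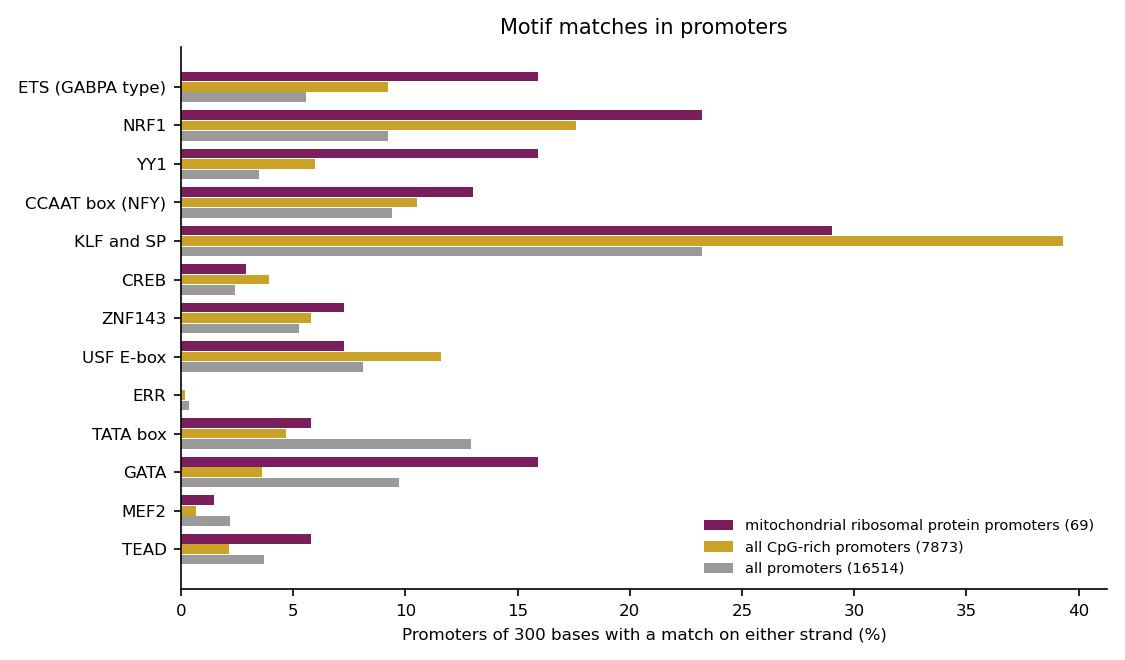
Percentage of promoters of 300 bases (horizontal axis) with a match on either strand to each of 13 motifs, for 69 mitochondrial ribosomal protein promoters, all CpG-rich promoters and all promoters. The NRF1, ETS and YY1 bars of the members, at 23.2%, 15.9% and 15.9%, lie beyond both others. So do those of GATA (15.9%), the CCAAT box (13.0%), ZNF143 (7.25%) and TEAD (5.80%). The KLF and SP bar of the CpG-rich promoters, at 39.3%, lies beyond the members' 29.0%.

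Within the family these motifs were no more frequent where EP300 was called. The ETS motif was in 15.9% of the 44 member promoters with an optimal summit within 1 kb and in 16.0% of the 25 without. YY1 gave the same 15.9% and 16.0%, and NRF1 gave 20.5% with a summit and 28.0% without. Any of the 3 was found in 47.7% with a summit and 56.0% without. Over all protein-coding genes, promoters with a summit held the ETS motif in 11.1%, NRF1 in 13.9% and YY1 in 6.95%, and those without a summit in 3.93%, 7.83% and 2.44%. Of the 7 genes with no pooled call, Mrpl41 held no match to a searched motif and Mrpl4 had no promoter entry. The promoters of 3 others, each with a match to at least 1 of the 3 motifs, are shown as examples. They are given on the strand of the gene, as above, for Mrpl3, of the peptidyl transferase centre, on chr9:105053018-105053317 (plus), Mrpl37, a mitochondrion-specific protein of the large subunit, on chr4:107066817-107067116 (minus), and Mrps26, of the small subunit, on chr2:130563507-130563806 (plus).
Mrpl3: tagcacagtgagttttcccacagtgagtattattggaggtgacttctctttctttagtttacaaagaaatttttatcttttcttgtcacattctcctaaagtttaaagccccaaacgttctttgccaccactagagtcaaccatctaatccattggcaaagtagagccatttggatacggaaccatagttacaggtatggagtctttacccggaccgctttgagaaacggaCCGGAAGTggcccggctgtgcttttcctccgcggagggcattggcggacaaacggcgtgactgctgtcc
Mrpl37: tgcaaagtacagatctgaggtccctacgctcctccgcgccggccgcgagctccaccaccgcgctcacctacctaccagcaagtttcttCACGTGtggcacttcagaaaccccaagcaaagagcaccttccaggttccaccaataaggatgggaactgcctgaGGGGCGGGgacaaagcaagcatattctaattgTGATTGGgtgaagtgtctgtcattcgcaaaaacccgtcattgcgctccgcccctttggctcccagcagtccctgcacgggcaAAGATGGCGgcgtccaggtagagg
Mrps26: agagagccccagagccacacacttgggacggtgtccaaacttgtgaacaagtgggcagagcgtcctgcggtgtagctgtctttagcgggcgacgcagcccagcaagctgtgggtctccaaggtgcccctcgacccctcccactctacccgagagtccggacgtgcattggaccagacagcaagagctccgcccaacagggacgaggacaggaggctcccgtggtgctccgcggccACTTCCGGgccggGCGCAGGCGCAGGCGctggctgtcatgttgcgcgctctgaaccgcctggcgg
The capitals mark an ETS match at base 232 of Mrpl3, which also held an unmarked GATA match. In Mrps26 they mark an ETS match at base 236 with NRF1 matches at bases 249 and 255, which overlap each other. In Mrpl37 they mark matches to the USF E-box at base 89, KLF and SP at base 163, the CCAAT box at base 195 and YY1 at base 277. Of the other motifs, KLF and SP (GGGGCGGG) stood in 29.0% of member promoters, against 23.2% of all and 39.3% of the CpG-rich ones. The CCAAT box (CCAATCA) stood in 13.0%, against 9.42% of all, ZNF143 (CTACANNTC) in 7.25%, against 5.26%, the USF E-box (CACGTG) in 7.25%, against 8.09%, and CREB (TGACGTCA) in 2.90%, against 2.42%. The TATA box (TATAAA) stood in 5.80% of member promoters, against 12.9% of all and 4.66% of the CpG-rich ones. The motif AGATAA of the GATA factors stood in 15.9% of member promoters, against 9.71% of all and 3.59% of the CpG-rich ones. TEAD (CATTCCA) stood in 5.80%, against 3.69% of all, and MEF2 (TAAAAATA) in 1.45%, against 2.17%. The motif of the oestrogen-related receptors (TCAAGGTCA) stood in 0 of the 69, against 0.333% of all.

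In the rest of the mitochondrial translation machinery the share with EP300 varied from group to group. Of the 5 genes of mitochondrial ribosomal proteins with other names, 4 had a peak, or 80.0%, against 31.9% of all protein-coding genes, with Dap3 (34.5, a distal peak 6749 bp from the TSS), Aurkaip1 (21.3) and Chchd1 (18.9) highest. Of 11 translation factors 5 had one, or 45.5%, with the elongation factor genes Tufm (66.9), Gfm2 (30.7) and Tsfm (24.8) highest. Of 17 mitochondrial tRNA synthetases 8 had one, or 47.1%, led by Fars2 (76.5), Iars2 (43.4, a distal peak 52201 bp from the TSS) and Tars2 (33.1). Of 21 genes for assembly of the ribosome 10 had one, or 47.6%, led by Mterf3 (56.4), Mrm1 (49.1, a distal peak 4296 bp from the TSS) and the RNA helicase Dhx30 (36.0). Of 11 genes for upkeep and expression of mitochondrial DNA 6 had one, or 54.5%, led by the DNA-binding protein Ssbp1 (81.4), the polymerase subunit Polg2 (52.0) and Lrpprc (49.3). An optimal summit within 1 kb of a TSS was found for 80.0% of the 5 genes with other names, 36.4% of the translation factors, 58.8% of the tRNA synthetases, 33.3% of the assembly genes and 63.6% of the mitochondrial DNA genes, next to 57.7% of the 78 genes and 21.3% of all protein-coding genes. The proteins of the cytosolic ribosome, which makes all other proteins of the cell, stood above the mitochondrial ones: 60 of their 80 genes had a summit within 1 kb, or 75.0%, and 58 had a peak, or 72.5%, led by Rpl32 (172.6), Rps19 (133.2) and Rpl21 (132.8). Their median peak signal was 37.3, against 30.6 for the mitochondrial ribosomal protein genes. A shared start was rarer among them, at 18.8% of the 80 genes, against 42.3% of the 78 mitochondrial ribosomal protein genes.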

How the data were processed

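EP300 ChIP-seq of newborn mouse heart was analysed from 5 deposited peak lists on mm10 (GRCm38). Per the file headers, the authors called peaks on replicate 1 with 2 control alignments, on replicate 2 with 1 and on the pooled reads with 2, and took the conservative and optimal lists from these by the irreproducible discovery rate (IDR). Since the optimal list was selected from these replicates, a match in them is no independent support. Aligner, peak caller, settings and IDR cut-off were not given in the sources used here. The lists give the authors' signal value per peak (how it was computed is not stated), the deposited −log10 p and q values, the deposited score (a scaled IDR of at most 1000 in the IDR lists) and the deposited summit offset. The depth is unknown.

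Peaks on the main chromosomes (17339 of 17372) were assigned by summit to the nearest of 54361 TSSs of protein-coding transcripts in GENCODE M21, within 100 kb, and called promoter peaks within 1 kb. Where a start site is shared, the summit went to the closer start. Promoters came from the RefSeq table of GRCm38.p6, and all 69 member promoters equalled the genome sequence at their coordinates. Motif windows at summits took 100 bases on each side. Assignment was tested on planted summits against a brute-force search. With 1 group of 2 libraries no test was made, and shares are descriptions. The members, gene lists, motifs and rules were chosen with earlier results of these data known. Every gene with a peak is named, and of other lists the 3 genes with the strongest peak. Signal, position and replicate values are given for the 12 strongest member peaks. For distal peaks and genes with several peaks the signal or rank is given, and for some also position and replicate values. The alternatives were other lists, each replicate alone, thresholds on q and signal, joined calls, other TSS sets, distances, limits and windows, and, chosen after the data were seen, Mrps23 left out. Software was pysam 0.24.0, pandas 2.3.3, numpy 2.4.6 and SciPy 1.17.1 under Python 3.11.15, with figures by matplotlib 3.10.9.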

Additional observations from a re-analysis of the deposited data

How the results depend on the processing

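The number of genes with a peak, 39 in the main analysis, lay between 28 and 46 under the alternatives run, and the number with a promoter peak, 36 in the main analysis, between 27 and 45. The share of the 78 genes with a peak stayed above that of all protein-coding genes wherever both were computed, closest in the conservative list at 39.7% against 29.3%. With the leading calls of 1 replicate alone it was 44.9% against 33.0% (replicate 2) and 50.0% against 35.0% (replicate 1), and within 10 kb 48.7% against 24.3%. Of the 56 values recomputed, 43 stayed within the limits set for them, 13 moved and 0 reversed. The count of 75 member peaks became 45 with peaks of −log10 q 2 or more and 37 at or above the median signal. The median signal of 30.6 became 40.2 and 46.0 under these thresholds, which take out weak peaks by construction, and 36.0 with overlapping calls joined. With 1 replicate left out it ranged from 16.1 to 20.4, on the scale of the remaining replicate's own list. The other moved values were shares of motifs in windows around the summit, such as NRF1 in 12.8% of member windows against 23.2% of promoters. Without Mrps23 (chosen after the data were seen) 38 genes had a peak. No paired analysis was possible because both libraries form 1 group. The files give no counts, so depth sets no interval here.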
